A study of Mus musculus with 20 samples.

Results

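Tenocytes from mouse tail tendon expressed 34 genes of glucose uptake, glycolysis, lactate and pyruvate handling and the pentose phosphate pathway. Most of them rose within 6 h of insulin-like growth factor 1 (IGF1), and the median log2 fold change of the 34 was then 0.79. At 24 h the median was 0.077, but 9 of the 34 still tested higher and 5 lower than untreated. Of all tested genes, 26.0% differed at 24 h. The 34 genes were chosen by name as the main transporters, enzymes and kinases of these routes, with earlier results of these data known. They came out of 29986 genes in the count table, and all 34 were among the 14420 genes with enough counts to be tested. IGF1 is a growth factor that signals through a receptor tyrosine kinase, and tenocytes are the fibroblasts that build the collagen matrix of tendon. The cells came from adult wild type C57Bl/6 mice and were sequenced as 5 groups of 4 libraries: with no cytokine (0 h), and after 1, 2, 6 and 24 h with recombinant IGF1 at 100 ng/mL. Cells kept without IGF1 for 1 to 24 h were not analysed here, so the effect of IGF1 and that of time since the start cannot be told apart. The labels do not say whether the 4 libraries of a time are separate cultures or animals, so p-values measure the spread between libraries, which may be technical.

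Glucose enters a cell through facilitative transporters and is trapped by hexokinase. Glycolysis then splits it in an upper part, paced by phosphofructokinase and its activator fructose-2,6-bisphosphate, and a lower part that yields pyruvate. Pyruvate is either reduced to lactate and exported, or oxidised by the mitochondrial pyruvate dehydrogenase complex, which the pyruvate dehydrogenase kinases switch off by phosphorylation. The pentose phosphate pathway branches off at glucose-6-phosphate and supplies NADPH and ribose. Insulin and IGF1 signalling are known to raise glucose uptake in many cells, and tendon is a tissue with a poor blood supply.

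Levels are given as CPM, read counts scaled to library size by the TMM method. A gene was called changed at an adjusted p under 0.05 in edgeR's quasi-likelihood test. Library totals lay between 13734425 and 22687173 counts. Of 8 tenocyte markers (among them Scx, Mkx and Tnmd) all 8 were tested, and their summed level was 41251 to 70293 CPM. At 2 h 1 of the 8 was called higher and 4 lower, where 37.7% of all tested genes were called. The summed level of 6 endothelial markers, of which 2 were tested, was 37 to 40.5 CPM at 0 h and 7.04 to 11.6 CPM at 6 h. At 6 h 1 of the 2 was called lower (log2 fold change −2.25), where 19.6% of all tested genes were called lower. The other was not called (0.157), so the fall was not shared by both tested endothelial markers. The summed level of 13 macrophage markers was 418 to 1105 CPM after 2 h, against 277 to 349 CPM at 0 h and 254 to 550 CPM after 1 h. Of the 13, 12 rose after 2 h, where 20.2% of all tested genes were called higher. The 2 h replicate 2 held the highest macrophage level and the lowest tenocyte level of the 20 libraries, and a Schwann cell marker level of 79.4 CPM, against at most 7.77 CPM at 0 h. Skeletal muscle markers summed to 8.91 to 20.8 CPM at 24 h, against 3.22 to 4.77 CPM at 0 h. Of 6 tested, 2 were called higher at 2, 6 and 24 h, where 20.2%, 20.6% and 12.7% of all tested genes were. Their part in the 24 h values was not tested. None of the macrophage markers was called at 1, 6 or 24 h with edgeR, and DESeq2 called 1 lower at 6 h; at an unadjusted p under 0.05 the counts were 0, 1 and 0. The 0 h replicate 2 carries the description of 0 h replicate 1, but the counts of both differed by more than sampling noise and they were counted as separate libraries.

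Of the 34 genes, 9 rose and 0 fell at 1 h, where 10.6% of all tested genes were called (6.75% higher and 3.88% lower). At an unadjusted p under 0.05, 14 would be higher and 2 lower at 1 h, and DESeq2 called 9 higher and 0 lower. At 2 h, 23 rose and 4 fell, where 37.7% of all tested genes were called (20.2% higher and 17.5% lower). At 6 h, 25 rose and 4 fell, where 40.2% of all tested genes were called (20.6% higher and 19.6% lower). At 24 h, 9 rose and 5 fell, where 26.0% of all tested genes were called (12.7% higher and 13.2% lower). Higher calls were a larger share of the 34 genes than of all genes at 1, 2, 6 and 24 h. The share of all counts taken by the 34 genes was 0.534% ± 0.00875 at 0 h, 0.587% ± 0.0108 after 1 h, 0.76% ± 0.0793 after 2 h, 1.07% ± 0.0154 after 6 h and 0.636% ± 0.0194 after 24 h (SD, n = 4 each). In these bulk libraries, more RNA of these genes per cell cannot be told apart from a change in the mix of cells.

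The median log2 fold change of the 34 genes against 0 h was 0.10 after 1 h, 0.42 after 2 h, 0.79 after 6 h and 0.077 after 24 h. The medians over all tested genes stayed between −0.0061 and 0.0033. At 6 h, 15 of the 34 genes were at least 2-fold higher than at 0 h and 2 were at least 2-fold lower. All 4 libraries at 6 h lay above all 4 at 0 h for 25 genes, which 22.4% of all tested genes did, and below for 4, which 21.0% of all tested genes did. The highest mean of the 5 times was after 6 h for 22 of the 34 genes (64.7%, against 20.8% of all tested genes), after 24 h for 5, after 2 h for 3, at 0 h for 3 and after 1 h for 1. In a test over all 5 times together, 32 of the 34 were called, where 63.7% of all tested genes were. The exceptions were Pdhb (adjusted p = 0.126) and Dlat (adjusted p = 0.381), which encode core subunits of the pyruvate dehydrogenase complex.

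**Figure D1:**
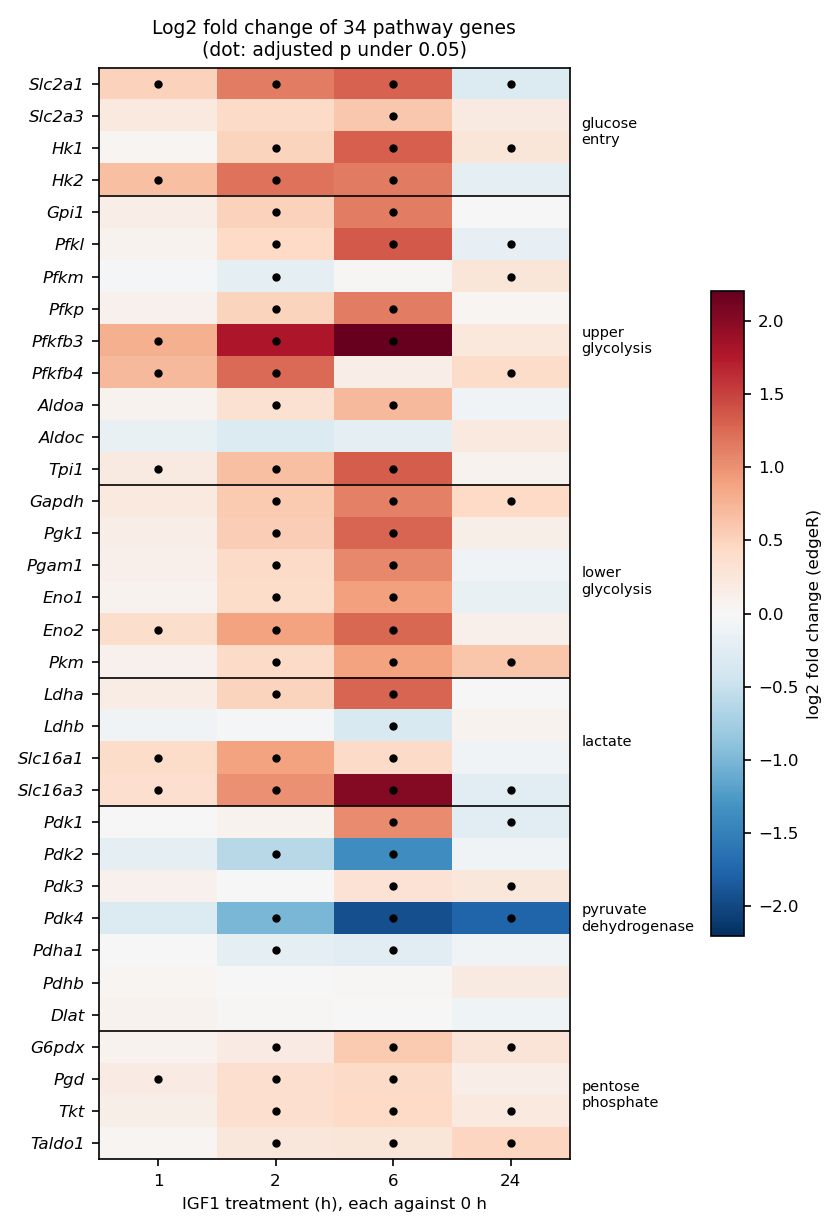
Log2 fold change against 0 h of the 34 genes (rows, grouped by step) at 1, 2, 6 and 24 h of IGF1 (columns, 4 libraries per time), with a dot where the adjusted p was under 0.05. The 6 h column is red for 25 genes with a dot and blue for 4, and the 24 h column is pale for most of them.

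By step, the median log2 fold change at 6 h was 1.22 for the 4 genes of glucose entry, 1.12 for the 9 of upper glycolysis, 1.08 for the 6 of lower glycolysis and 0.85 for the 4 of lactate. It was 0.43 for the 4 pentose phosphate genes and 0.0032 for the 7 genes of pyruvate dehydrogenase and its kinases, where genes moved both ways. At 24 h the medians were −0.00019 for glucose entry, 0.075 for upper glycolysis, 0.12 for lower glycolysis and −0.029 for lactate. The pentose phosphate genes had a median of 0.25 at 24 h, the highest of the 6 steps.

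**Figure D2:**
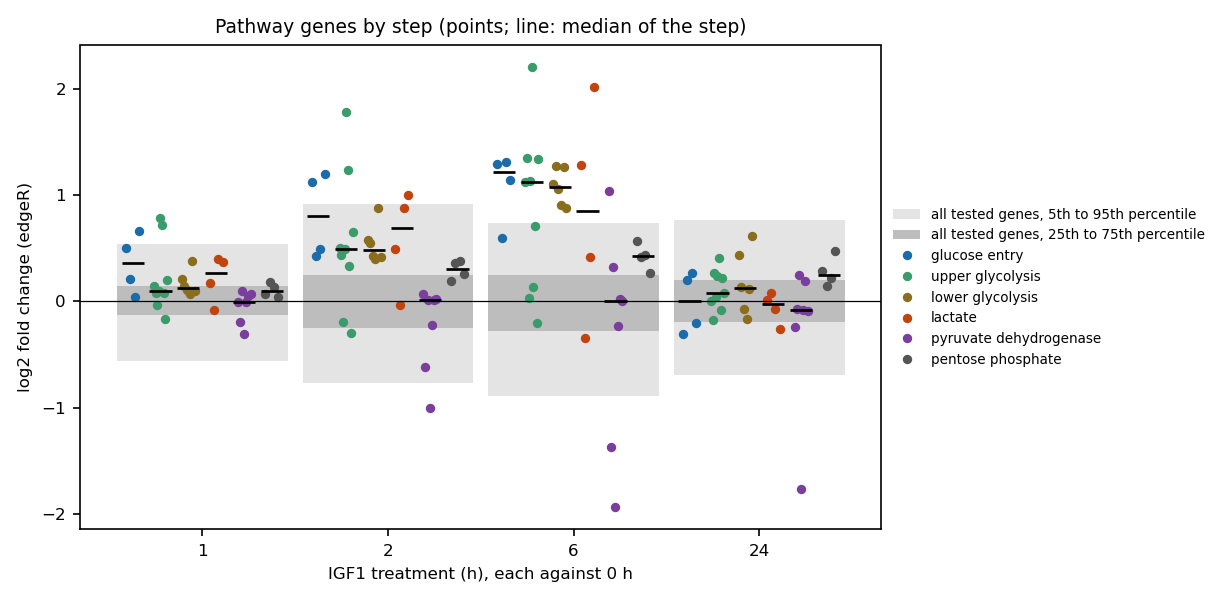
Log2 fold change against 0 h of each of the 34 genes (points, coloured by step, with the median of the step as a line) at 1, 2, 6 and 24 h, over the range of all 14420 tested genes (grey bands). At 6 h the medians of glucose entry, upper and lower glycolysis and lactate, between 0.85 and 1.22, lie above the 95th percentile of all tested genes (0.74).

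The starts of 4 genes are shown because they were the steepest movers or carried the most matches to a searched motif: Pfkfb3 and Slc16a3, which rose most, Ldha, and Pdk4, which fell most. Each sequence runs from 250 bases before to 50 bases after the transcription start in RefSeq (build GRCm38.p6) and is written 5′ to 3′ on the strand of the gene. Capitals mark ACGTG or GCGTG read on either strand (CACGT or CACGC on the printed strand), the core letters of the element bound by hypoxia-inducible factors.
Pfkfb3, chr2:11553880-11554179, minus strand: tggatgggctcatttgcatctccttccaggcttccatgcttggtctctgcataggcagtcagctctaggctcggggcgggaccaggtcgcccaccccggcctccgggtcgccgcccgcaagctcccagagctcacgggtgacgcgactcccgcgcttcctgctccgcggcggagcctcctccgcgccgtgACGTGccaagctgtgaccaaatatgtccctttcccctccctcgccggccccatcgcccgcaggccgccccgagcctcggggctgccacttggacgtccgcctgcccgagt
Slc16a3, chr11:120948817-120949116, plus strand: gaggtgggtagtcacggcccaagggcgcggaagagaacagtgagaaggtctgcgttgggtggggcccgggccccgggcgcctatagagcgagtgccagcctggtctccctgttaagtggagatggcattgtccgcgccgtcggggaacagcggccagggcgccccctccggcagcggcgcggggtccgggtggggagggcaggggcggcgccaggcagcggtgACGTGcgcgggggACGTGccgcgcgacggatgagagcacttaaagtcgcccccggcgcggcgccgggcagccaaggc
Ldha, chr7:46845554-46845853, plus strand: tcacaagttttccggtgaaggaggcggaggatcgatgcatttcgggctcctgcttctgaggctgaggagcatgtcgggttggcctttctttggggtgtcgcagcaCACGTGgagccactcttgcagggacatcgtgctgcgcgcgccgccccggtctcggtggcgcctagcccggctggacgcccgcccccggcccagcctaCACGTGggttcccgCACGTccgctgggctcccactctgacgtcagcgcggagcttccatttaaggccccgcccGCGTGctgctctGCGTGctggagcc
Pdk4, chr6:5496229-5496528, minus strand: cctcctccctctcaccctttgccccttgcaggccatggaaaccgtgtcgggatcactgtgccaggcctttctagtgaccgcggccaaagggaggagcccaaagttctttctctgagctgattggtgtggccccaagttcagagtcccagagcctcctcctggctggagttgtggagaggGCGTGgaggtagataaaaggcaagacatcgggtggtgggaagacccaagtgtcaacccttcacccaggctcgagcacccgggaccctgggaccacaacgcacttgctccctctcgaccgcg
The Ldha window held 5 matches to ACGTG and 2 to GCGTG, and the Pdk4 window held 0 to ACGTG and 1 to GCGTG. The 5 in Ldha include 2 palindromes CACGTG, each counted once per strand, so they stand at fewer separate sites.

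Of the 34 genes, 33 had such a window in the RefSeq table. ACGTG on either strand was in 15 of the 33 (45.5%), against 25.6% of the windows of 9866 tested genes and 19.6% of all 27025 windows. GCGTG on either strand was in 20 of the 33 (60.6%), against 51.7% of the tested genes' windows and 32.5% of all. At least 1 of both motifs was in 26 of the 33 (78.8%), against 63.1% of the tested genes' windows and 43.8% of all. The palindrome CACGTG, the E-box read by Myc and the glucose-sensing Mondo factors, which contains ACGTG on both strands, was in 4 of the 33 (12.1%), against 10.2% of the tested genes' windows and 7.24% of all. These are letter matches in 1 window per gene, and binding was not measured.

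All 4 genes of glucose entry rose at 6 h, where 20.6% of all tested genes were called higher. Of the 4, Slc2a1 and Hk2 had already risen at 1 h, where 6.75% of all tested genes were called higher. Slc2a1 (chromosome 4, bases 119108711 to 119137983) encodes GLUT1, the transporter of basal glucose uptake, and was at 112, 115, 106 and 119 CPM at 0 h, 164, 163, 156 and 161 CPM after 1 h and 227, 305, 230.1 and 221 CPM after 2 h. Slc2a1 then had 277, 286, 283 and 260.1 CPM at 6 h and 93.3, 88.9, 94.5 and 88.7 CPM at 24 h. Every library at 1, 2 and 6 h lay above every library at 0 h, every library at 24 h lay below, and 2 h replicate 2 was above all other libraries. The log2 fold change of Slc2a1 against 0 h was 0.51 ± 0.075 after 1 h, 1.12 ± 0.075 after 2 h, 1.29 ± 0.075 after 6 h and −0.31 ± 0.075 after 24 h (± SE here and below, adjusted p at most 0.00288). Each SE was derived from the test statistic of a fit in which all 5 times share the spread of a gene. It therefore does not show differences in scatter between times. Slc2a3 (chromosome 6, bases 122727809 to 122801640), which encodes the high-affinity transporter GLUT3, was at 5.56, 5.18, 3.39 and 4.97 CPM at 0 h, 6.54, 6.28, 4.4 and 5.06 CPM after 1 h and 7.61, 7.29, 5.41 and 5.39 CPM after 2 h. Slc2a3 then had 6.9, 8.2, 6.94 and 6.88 CPM at 6 h and 4.25, 5.19, 6.06 and 6.46 CPM at 24 h. The 6 h libraries lay above the 0 h ones, while the 2 h libraries overlapped them. Slc2a3 rose at 6 h by 0.59 ± 0.17 (adjusted p = 0.0071), and its value of 0.43 ± 0.17 at 2 h did not pass the test with edgeR (adjusted p = 0.0529) but did with DESeq2 (adjusted p = 0.0453). Per kb of exonic length, Slc2a1 was at 78.9 ± 3.35 and Slc2a3 at 0.998 ± 0.0895 CPM at 6 h (SD, n = 4), so GLUT1 was the main glucose transporter transcript of the pair.

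The hexokinases differed in timing. Hk2 (chromosome 6, bases 82725025 to 82774454), the insulin-regulated hexokinase, was at 80.3, 85.3, 83.9 and 79.7 CPM at 0 h, 127, 126, 133 and 137 CPM after 1 h and 191, 251, 183 and 132 CPM after 2 h. Hk2 then had 184, 182, 182 and 181 CPM at 6 h and 73, 68.9, 72.9 and 71.8 CPM at 24 h. Its 1, 2 and 6 h libraries lay above the 0 h ones, the 2 h libraries were widely spread, and the 24 h libraries lay below those at 0 h. Hk2 rose by 0.67 ± 0.11 after 1 h, 1.2 ± 0.11 after 2 h and 1.15 ± 0.11 after 6 h (adjusted p at most 0.000245), and its value of −0.2 ± 0.11 after 24 h did not pass the test (adjusted p = 0.211). That 24 h value was called lower without 2 h replicate 2 (adjusted p = 0.0495) or 4 (0.0242), or without 2 h replicates 1 and 2 (0.0294). It was also called with no count filter (0.0455) or with only the 8 libraries compared (0.00386). Hk1 (chromosome 10, bases 62268855 to 62379908), the hexokinase found in most tissues, was at 116, 117, 109 and 114 CPM at 0 h, 115, 123, 119 and 114 CPM after 1 h and 161, 188, 159 and 132 CPM after 2 h. Hk1 then had 280.5, 277, 286 and 286 CPM at 6 h and 134, 142, 140.0 and 133 CPM at 24 h. At 1 h it overlapped the 0 h libraries, and at 2, 6 and 24 h every library lay above them. Hk1 had a value of 0.045 ± 0.07 after 1 h (adjusted p = 0.78) and rose by 0.49 ± 0.07 after 2 h, 1.31 ± 0.07 after 6 h and 0.27 ± 0.07 after 24 h (adjusted p at most 0.00473). Per kb, Hk2 was at 31.7 ± 8.16 and Hk1 at 18.7 ± 2.66 CPM at 2 h, while at 24 h Hk2 was at 12 ± 0.32 and Hk1 at 16.1 ± 0.547 CPM. Without 2 h replicates 1 and 2, the 2 h value was 0.93 for Hk2 and 0.35 for Hk1, both still called.

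**Figure D3:**
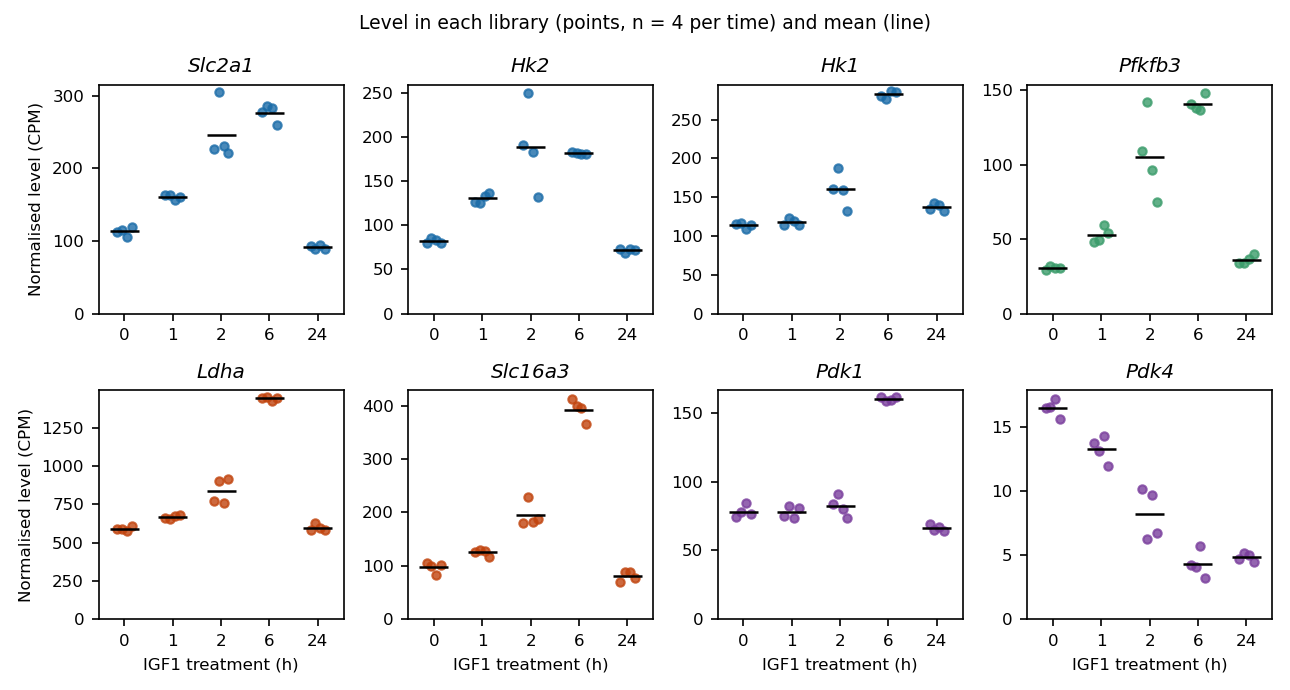
Level (CPM) of Slc2a1, Hk2, Hk1, Pfkfb3, Ldha, Slc16a3, Pdk1 and Pdk4 in each of the 20 libraries (points) by hours of IGF1, with the mean of 4 libraries as a line. Hk2 is up after 1 h and Hk1 is not, Pdk1 is high after 6 h among the 5 times, and Pdk4 is still low after 24 h.

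In upper glycolysis, 3 of 9 genes rose after 1 h, where 10.6% of all tested genes were called. In this step 7 rose and 1 fell after 2 h (37.7% of all tested genes called), and 6 rose and 0 fell after 6 h (40.2%). The steepest was Pfkfb3 (chromosome 2, bases 11471433 to 11554077), which encodes the bifunctional enzyme with the strongest kinase side, the one that makes fructose-2,6-bisphosphate. Pfkfb3 was at 29.6, 31.7, 30.9 and 30.4 CPM at 0 h, 48.1, 49.3, 59.7 and 54.3 CPM after 1 h and 109, 142, 96.1 and 74.6 CPM after 2 h. Pfkfb3 then had 141, 138, 137 and 148 CPM at 6 h and 33.8, 33.7, 36.7 and 40.2 CPM at 24 h. All libraries at 1, 2, 6 and 24 h lay above all at 0 h, and the 2 h libraries spread most. Pfkfb3 rose by 0.79 ± 0.13 after 1 h, 1.78 ± 0.13 after 2 h and 2.2 ± 0.13 after 6 h (adjusted p at most 0.000247), with 0.24 ± 0.13 after 24 h (adjusted p = 0.206, not called). That 24 h value of Pfkfb3 was called higher without 2 h replicates 1 and 2 (adjusted p = 0.0239) or with only the 8 libraries compared (0.00887). Its relative Pfkfb4 (chromosome 9, bases 108991778 to 109032228) was at 6.58, 6.7, 6.01 and 4.92 CPM at 0 h, 9.45, 10.9, 10 and 9.36 CPM after 1 h and 14.4, 16.4, 12.8 and 13.5 CPM after 2 h. Pfkfb4 then had 6.81, 6.63, 6.18 and 7.03 CPM at 6 h and 7.25, 7.9, 6.92 and 10.1 CPM at 24 h. The libraries at 1 and 2 h lay above those at 0 h, and those at 6 h were in the upper part of the 0 h range or just above it. Pfkfb4 rose by 0.72 ± 0.13 after 1 h and 1.24 ± 0.13 after 2 h (adjusted p at most 0.000312), was not called after 6 h (0.14 ± 0.13, adjusted p = 0.436), and rose by 0.41 ± 0.13 after 24 h (adjusted p = 0.0222). That last call did not hold without 0 h replicate 4 (adjusted p = 0.0925) or 24 h replicate 4 (adjusted p = 0.131).

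The phosphofructokinase subunits went different ways. Pfkl (chromosome 10, bases 77986947 to 78010083), the liver-type subunit, was at 193, 184, 175 and 188 CPM at 0 h, 203, 195, 192 and 191 CPM after 1 h and 236, 269, 258 and 236 CPM after 2 h. Pfkl then had 476, 475, 470.2 and 461 CPM at 6 h and 159, 163, 167 and 165 CPM at 24 h. The 6 h libraries were far above the 0 h ones and close to each other, and the 24 h libraries lay below every 0 h library. Pfkl rose by 0.44 ± 0.053 after 2 h and 1.35 ± 0.054 after 6 h (adjusted p at most 2.83e-07) and fell by 0.18 ± 0.054 after 24 h (adjusted p = 0.014; not called without 0 h replicate 1, with 0.0536, or with no count filter, with 0.0686). Pfkp, the platelet-type subunit, rose by 1.13 ± 0.12 at 6 h to 99.2 ± 3.49 CPM, against 45.3 ± 2.43 CPM at 0 h (SD; adjusted p = 4.84e-08). Pfkp also rose at 2 h by 0.49, a call lost without 2 h replicates 1 and 2 (0.16, adjusted p = 0.103). Pfkm, the muscle-type subunit, fell by 0.19 ± 0.072 after 2 h (adjusted p = 0.0369), had 0.032 ± 0.071 after 6 h (adjusted p = 0.757), and rose by 0.26 ± 0.071 after 24 h (adjusted p = 0.00672). The 2 h fall of Pfkm was lost without 0 h replicate 2 (adjusted p = 0.152), 2 h replicate 2 (0.14) or 2 h replicate 3 (0.0737). Per kb at 6 h, Pfkl was at 70.5 ± 1.03, Pfkm at 10.6 ± 0.396 and Pfkp at 7.4 ± 0.261 CPM, and at 0 h Pfkl was at 27.7 ± 1.14, Pfkm at 10.3 ± 0.789 and Pfkp at 3.38 ± 0.181 CPM.

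Gpi1, Aldoa and Tpi1, which encode glucose-6-phosphate isomerase, aldolase A and triosephosphate isomerase, rose at 2 and 6 h. At 6 h the log2 fold change was 1.34 ± 0.064 for Tpi1, 1.12 ± 0.054 for Gpi1 and 0.71 ± 0.061 for Aldoa (adjusted p at most 4.37e-10), and none of the 3 was called at 24 h, with values between −0.082 and 0.075. Tpi1 was also called at 1 h (0.2 ± 0.063, adjusted p = 0.0407), a call lost when any of 17 of the 20 libraries was left out (adjusted p 0.061 to 0.198). Aldoc, the brain-type aldolase, was not called against 0 h at any time with edgeR, with values between −0.29 at 2 h and 0.22 at 24 h. Its 2 h value (adjusted p = 0.0566 with edgeR) was called lower with DESeq2 (adjusted p = 0.036), and it was −0.036 without 2 h replicates 1 and 2 (adjusted p = 0.805 with edgeR). Aldoa was at 264 ± 10.2 and Aldoc at 13.6 ± 1.25 CPM per kb at 0 h. Of the exonic bases of Gpi1, 11.5% overlap a gene on the opposite strand, and 5.58% of those of Pfkp do; the use of strand in the counting is not given in the sources used here.

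All 6 genes of lower glycolysis rose after 2 h and after 6 h, where 20.2% and 20.6% of all tested genes were called higher. Of these, 2, Gapdh and Pkm, were still higher after 24 h, where 12.7% of all tested genes were called higher. Pgk1 (chromosome X, bases 106187100 to 106203699), whose enzyme makes the first ATP of lower glycolysis, was at 118, 131, 131 and 121 CPM at 0 h, 140.5, 138, 133 and 144 CPM after 1 h and 171, 202, 164 and 195 CPM after 2 h. Pgk1 then had 293, 299.7, 310.5 and 313 CPM at 6 h and 138, 146, 132 and 135 CPM at 24 h. Every library after IGF1 lay above every 0 h library, most clearly at 6 h. Pgk1 rose by 0.55 ± 0.063 after 2 h and 1.28 ± 0.064 after 6 h (adjusted p at most 1.15e-07), with 0.13 ± 0.063 after 24 h (adjusted p = 0.124, not called). Eno2 (chromosome 6, bases 124760053 to 124769673), known as the neuronal enolase, was at 45.6, 43.1, 41.9 and 42.6 CPM at 0 h, 53.1, 49.7, 62 and 61 CPM after 1 h and 73.8, 94.6, 74 and 75.6 CPM after 2 h. Eno2 then had 100.4, 100.3, 106 and 109.9 CPM at 6 h and 42.6, 47.9, 48.5 and 48.3 CPM at 24 h. Its 1, 2 and 6 h libraries lay above the 0 h ones and its 24 h libraries overlapped them, with 24 h replicate 1 lower than the other 3. Eno2 rose by 0.38 ± 0.081 after 1 h, 0.88 ± 0.08 after 2 h and 1.26 ± 0.08 after 6 h (adjusted p at most 0.00156), and after 1 h it alone of the 6 was called. Eno1, the common enolase, rose by 0.9 ± 0.067 at 6 h and Pgam1, phosphoglycerate mutase, by 1.06 ± 0.08 (adjusted p at most 3.48e-11). Per kb at 6 h, Eno1 was at 161 ± 4.54 and Eno2 at 22.1 ± 0.98 CPM.

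Pkm, which encodes both muscle-type pyruvate kinases M1 and M2 through alternative exons that whole-gene counts do not separate, was at 988 ± 37.8 CPM at 0 h, 1820.5 ± 9.49 after 6 h and 1512 ± 60.5 after 24 h (SD, n = 4). It rose by 0.88 ± 0.063 at 6 h and 0.61 ± 0.062 at 24 h (adjusted p at most 1.46e-08), and its 24 h value was the largest of the 34 genes at that time in the upward direction. Gapdh, the glyceraldehyde-3-phosphate dehydrogenase often used as a reference transcript, was at 253 ± 5.59 CPM at 0 h, 293 ± 6.67 after 1 h, 379 ± 52.8 after 2 h, 544 ± 5.92 after 6 h and 343 ± 22.4 after 24 h. Gapdh rose by 0.58 ± 0.07 after 2 h, 1.1 ± 0.071 after 6 h and 0.44 ± 0.07 after 24 h (adjusted p at most 2.16e-05). The level of Gapdh is uncertain, because the table holds 185 genes with near-identical sequence that can take its reads. The largest, the processed pseudogene RP23-338O4.6 on chromosome 2, is 99.9% identical over 1000 bases and was at 161.5 ± 5.44 CPM at 6 h, against 88.3 ± 3.83 CPM at 0 h, a log2 fold change of 0.87 ± 0.078 (adjusted p = 9.45e-10). The near copies of every other member held at most 1.24% of that member's counts.

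Of the 4 lactate genes, Ldha, Slc16a1 and Slc16a3 rose and Ldhb fell at 6 h, where 40.2% of all tested genes were called. Ldha (chromosome 7, bases 46841475 to 46855627), the subunit that favours lactate formation, was at 592, 591, 578 and 609 CPM at 0 h, 662, 652, 672 and 679.5 CPM after 1 h and 771, 901, 757 and 915 CPM after 2 h. Ldha then had 1449, 1455, 1426 and 1449 CPM at 6 h and 582, 630.0, 596 and 584 CPM at 24 h. Its 1, 2 and 6 h libraries lay above all 0 h libraries, and the 6 h libraries were nearly equal. Ldha rose by 0.5 ± 0.058 after 2 h and 1.29 ± 0.059 after 6 h (adjusted p at most 1.33e-07), with 0.17 ± 0.058 after 1 h (adjusted p = 0.0598) and 0.013 ± 0.058 after 24 h (adjusted p = 0.902), both not called. Its 1 h value was called without 2 h replicate 2 (adjusted p = 0.0303) or 4 (0.0211), or with only the 8 libraries compared (0.0083). Ldhb (chromosome 6, bases 142490249 to 142507957), the subunit that favours lactate use, was at 23.4, 24.1, 22.5 and 22.3 CPM at 0 h, 19.4, 22.6, 20.4 and 24.8 CPM after 1 h and 22.1, 20.6, 22.1 and 25.4 CPM after 2 h. Ldhb then had 17.6, 18.8, 18.8 and 17.6 CPM at 6 h and 25, 23.8, 25.7 and 22.9 CPM at 24 h. All 6 h libraries lay below all 0 h libraries, and the other times overlapped 0 h. Ldhb fell by 0.34 ± 0.085 at 6 h (adjusted p = 0.00194) and had 0.079 ± 0.084 at 24 h (adjusted p = 0.545). Per kb, Ldha was at 179 ± 3.86 and Ldhb at 14.7 ± 0.516 CPM at 0 h.

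Slc16a3 (chromosome 11, bases 120948480 to 120960868) encodes MCT4, the lactate exporter of glycolytic cells, and was at 106, 99.1, 82.2 and 101 CPM at 0 h, 127, 129, 128 and 117 CPM after 1 h and 180.2, 229, 182 and 187 CPM after 2 h. Slc16a3 then had 412, 398, 395 and 365 CPM at 6 h and 69.3, 88.7, 88.7 and 77.7 CPM at 24 h. The 6 h libraries were far above all others, and the 24 h libraries lay in or below the 0 h range. Slc16a3 rose by 0.37 ± 0.085 after 1 h, 1 ± 0.085 after 2 h and 2.02 ± 0.086 after 6 h (adjusted p at most 0.0037), and fell by 0.26 ± 0.086 after 24 h (adjusted p = 0.0275). That 24 h call was lost without 0 h replicate 1 (0.107), 2 (0.0657) or 4 (0.0772), or 24 h replicate 1 (0.133) or 4 (0.0833), each an adjusted p. Slc16a1 (chromosome 3, bases 104638668 to 104658462), which encodes the widely expressed transporter MCT1, was at 80.8, 99.8, 92.4 and 91.5 CPM at 0 h, 118, 117, 119.5 and 125 CPM after 1 h and 160.3, 202, 151 and 157 CPM after 2 h. Slc16a1 then had 120.2, 118, 126 and 123 CPM at 6 h and 95, 84.9, 85 and 82 CPM at 24 h. It was highest at 2 h, and its 6 h libraries lay between those of 2 h and 0 h without overlap. Slc16a1 rose by 0.4 ± 0.076 after 1 h, 0.88 ± 0.076 after 2 h and 0.42 ± 0.076 after 6 h (adjusted p at most 0.000578), with −0.071 ± 0.077 after 24 h (adjusted p = 0.552). Per kb, Slc16a3 was at 73.8 ± 3.73 and Slc16a1 at 27.5 ± 0.735 CPM at 6 h, while at 0 h they were at 18.2 ± 1.92 and 20.6 ± 1.77 CPM.

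The kinases of the pyruvate dehydrogenase complex split, while its subunits moved little. Of the 7 genes of this step, 0 were called after 1 h with edgeR (2 lower at an unadjusted p under 0.05, 0 with DESeq2), 3 fell and 0 rose after 2 h, and 2 rose and 3 fell after 6 h. The shares of all tested genes called were 10.6% after 1 h, 37.7% after 2 h and 40.2% after 6 h. Pdk4 (chromosome 6, bases 5483351 to 5496309), the kinase induced by fasting and lowered by insulin in muscle, was at 16.5, 16.6, 17.2 and 15.6 CPM at 0 h, 13.8, 13.1, 14.3 and 12 CPM after 1 h and 10.1, 6.24, 9.73 and 6.77 CPM after 2 h. Pdk4 then had 4.19, 4.07, 5.75 and 3.2 CPM at 6 h and 4.67, 5.19, 4.97 and 4.45 CPM at 24 h. Every library after IGF1 lay below every 0 h library, and the 24 h libraries were in the range of the 6 h ones. Pdk4 fell by 1 ± 0.14 after 2 h, 1.94 ± 0.15 after 6 h and 1.77 ± 0.15 after 24 h (adjusted p at most 3.83e-06), with −0.31 ± 0.14 after 1 h (adjusted p = 0.187, not called). With only the 8 libraries compared, its 1 h value was called lower (adjusted p = 0.0303). Pdk2 (chromosome 11, bases 95026258 to 95041354), the broadly expressed kinase, was at 26.2, 21, 21.1 and 23.7 CPM at 0 h, 21.7, 19, 20.4 and 19.2 CPM after 1 h and 14.7, 14.8, 17.3 and 13.1 CPM after 2 h. Pdk2 then had 8.88, 8.49, 9.57 and 8.71 CPM at 6 h and 22.6, 23, 22 and 19.9 CPM at 24 h. Its 2 and 6 h libraries lay below all 0 h libraries, and by 24 h it overlapped them again. Pdk2 fell by 0.62 ± 0.094 after 2 h and 1.37 ± 0.098 after 6 h (adjusted p at most 8.26e-06), with −0.072 ± 0.093 after 24 h (adjusted p = 0.624).

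Pdk1 (chromosome 2, bases 71873224 to 71903858), the kinase induced by low oxygen, was at 73.9, 77.8, 84.7 and 76.4 CPM at 0 h, 75.3, 82.2, 73.8 and 80.5 CPM after 1 h and 83.6, 91.1, 80.3 and 73.7 CPM after 2 h. Pdk1 then had 162, 158, 159 and 162 CPM at 6 h and 68.9, 64.8, 66.6 and 63.7 CPM at 24 h. It overlapped 0 h at 1 and 2 h, lay far above at 6 h and below at 24 h. Pdk1 had 0.072 ± 0.063 after 2 h (adjusted p = 0.392), rose by 1.03 ± 0.063 after 6 h (adjusted p = 5.18e-13) and fell by 0.24 ± 0.064 after 24 h (adjusted p = 0.0049). Pdk3 rose by 0.32 ± 0.065 at 6 h and 0.25 ± 0.065 at 24 h (adjusted p at most 0.00579), and the 24 h call was lost with no count filter (adjusted p = 0.0622). Per kb, the order at 6 h was Pdk1 at 20.6 ± 0.207, Pdk3 at 18 ± 0.775, Pdk2 at 2.82 ± 0.148 and Pdk4 at 1.23 ± 0.303 CPM. At 0 h it was Pdk3 at 14.4 ± 0.402, Pdk1 at 10.1 ± 0.593, Pdk2 at 7.26 ± 0.782 and Pdk4 at 4.69 ± 0.186 CPM (SD, n = 4), with no neighbours overlapping within 1 SD at either time. Of the subunits, Pdha1, the E1 alpha chain that the kinases phosphorylate, fell by 0.22 ± 0.054 at 2 h and 0.23 ± 0.054 at 6 h (adjusted p at most 0.00214). Pdhb and Dlat lay between 0.015 and 0.05 for Pdhb and between 0.0032 and 0.069 for Dlat at 1, 2 and 6 h, with no call. Of the exonic bases of Pdha1, 16.1% overlap Map3k15 on the opposite strand.

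The 4 pentose phosphate genes, G6pdx, Pgd, Tkt and Taldo1, rose after 2 h and after 6 h by less than most glycolytic genes. At these times 20.2% and 20.6% of all tested genes were called higher. Of the 4, 3 were still higher after 24 h, where 12.7% of all tested genes were called higher. G6pdx (chromosome X, bases 74409483 to 74429194), whose enzyme commits glucose-6-phosphate to the pathway, was at 57.3, 52.4, 45.7 and 50.4 CPM at 0 h, 54.4, 52, 57.8 and 51.7 CPM after 1 h and 56.9, 63.4, 50.8 and 63.6 CPM after 2 h. G6pdx then had 74, 77.5, 75.8 and 78 CPM at 6 h and 62.5, 63.5, 65.2 and 59.4 CPM at 24 h. The 6 and 24 h libraries lay above the 0 h ones and the 2 h libraries overlapped them. G6pdx rose by 0.57 ± 0.073 at 6 h and 0.28 ± 0.073 at 24 h (adjusted p at most 0.00462). Its 2 h call (0.19 ± 0.073, adjusted p = 0.043) was lost when any of 16 libraries was left out (adjusted p 0.0508 to 0.182). Taldo1 (chromosome 7, bases 141392199 to 141402968), transaldolase of the non-oxidative branch, was at 57.8, 56.7, 50.5 and 55.2 CPM at 0 h, 54.2, 60.9, 57 and 54.2 CPM after 1 h and 57.5, 74, 57.8 and 73.4 CPM after 2 h. Taldo1 then had 64.8, 69.9, 65.8 and 64.6 CPM at 6 h and 78, 78.7, 81.5 and 67.3 CPM at 24 h. At 24 h all libraries lay above those at 0 h and it reached its highest mean. Taldo1 rose by 0.25 ± 0.081 after 2 h, 0.27 ± 0.081 after 6 h and 0.47 ± 0.081 after 24 h (adjusted p at most 0.0141), and its 2 h call was lost without 0 h replicate 3 (0.0614) or 2 h replicate 2 (0.0687). Tkt, transketolase, rose by 0.44 ± 0.057 after 6 h and 0.22 ± 0.057 after 24 h, and Pgd, 6-phosphogluconate dehydrogenase, rose by 0.42 ± 0.057 after 6 h and had 0.15 ± 0.058 after 24 h (adjusted p = 0.0581, not called). That 24 h value of Pgd was called higher without 2 h replicate 2 (adjusted p = 0.0346), 3 (0.0376) or 4 (0.0239). The 1 h call of Pgd (0.18 ± 0.058, adjusted p = 0.0404) was lost when any of 17 libraries was left out (adjusted p 0.0667 to 0.132). Of the exonic bases of G6pdx, 13.6% overlap Ikbkg on the opposite strand.

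Count ratios of related genes within a library do not depend on scaling, and 6 pairs were followed. The ratio of Hk2 to Hk1 counts was 0.724 ± 0.033 at 0 h, 1.11 ± 0.0732 after 1 h, 1.17 ± 0.139 after 2 h, 0.645 ± 0.0127 after 6 h and 0.522 ± 0.0279 after 24 h (SD, n = 4 each), so every library was higher at 1 and 2 h, and lower at 6 and 24 h, than all at 0 h. The ratio of Pfkfb3 to Pfkfb4 was 5.13 ± 0.739 at 0 h, 5.34 ± 0.658 after 1 h, 7.31 ± 1.3 after 2 h, 21.2 ± 0.635 after 6 h and 4.55 ± 0.575 after 24 h. For Ldha to Ldhb it was 25.7 ± 1.16 at 0 h, 30.8 ± 3.21 after 1 h, 37.2 ± 4.45 after 2 h, 79.4 ± 3.45 after 6 h and 24.6 ± 1.68 after 24 h. At 6 h every library of both these pairs exceeded every library of the other times. The ratio of Slc16a3 to Slc16a1 was 1.07 ± 0.179 at 0 h, 1.04 ± 0.0728 after 1 h, 1.16 ± 0.0408 after 2 h, 3.22 ± 0.213 after 6 h and 0.941 ± 0.148 after 24 h. That of Slc2a1 to Slc2a3 was 24.4 ± 4.84 at 0 h, 29.5 ± 4.9 after 1 h, 38.8 ± 6.01 after 2 h, 38.4 ± 2.67 after 6 h and 17.1 ± 3.5 after 24 h. The ratio of Pdk1 to Pdk4 was 4.75 ± 0.204 at 0 h, 5.9 ± 0.729 after 1 h, 10.5 ± 3 after 2 h, 38.9 ± 9.32 after 6 h and 13.7 ± 1 after 24 h. For the lactate transporters only the 6 h libraries stood apart, and for Pdk1 to Pdk4 the libraries at 1, 2, 6 and 24 h all lay above those at 0 h. Ratios of raw counts contain the gene lengths, so only their change over time is read, and none was tested.

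**Figure D4:**
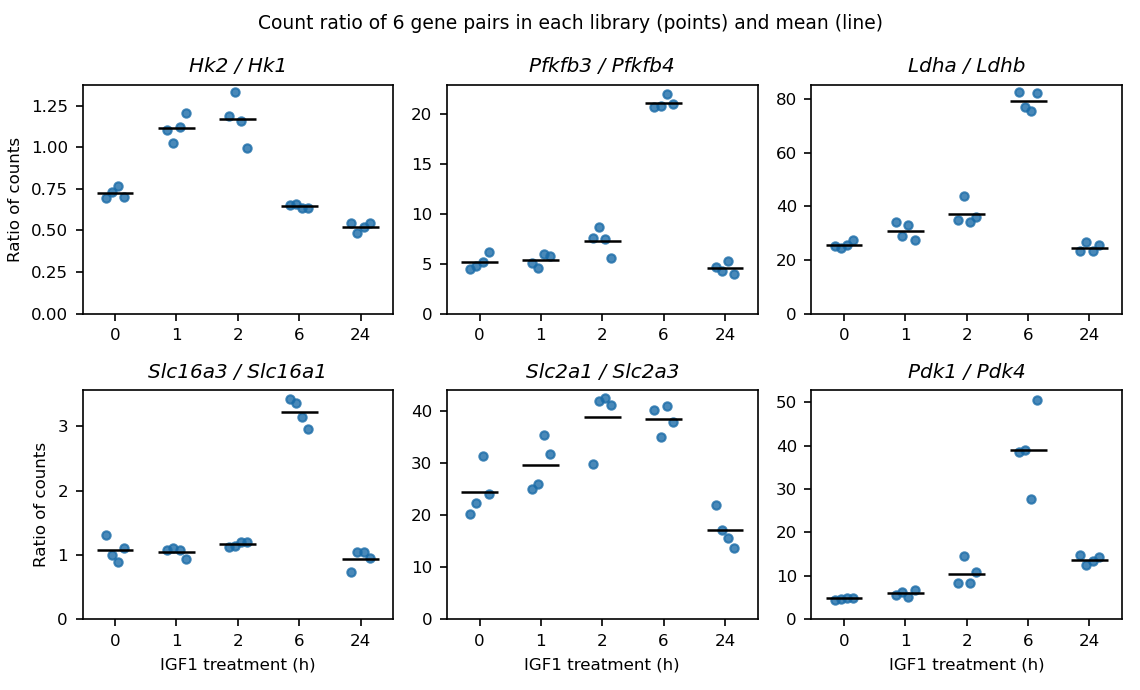
Ratio of counts of 6 gene pairs in each of the 20 libraries (points) by hours of IGF1, with the mean of 4 libraries as a line. Pfkfb3 over Pfkfb4, Ldha over Ldhb and Slc16a3 over Slc16a1 stand apart at 6 h, while Hk2 over Hk1 is highest at 1 and 2 h.

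Between successive times, 21 of the 34 genes rose and 3 fell at 2 h against 1 h, where 16.3% of all tested genes were called (7.50% higher and 8.84% lower). At 6 h against 2 h, 19 rose and 5 fell, where 27.4% of all tested genes were called (13.6% higher and 13.7% lower). The falls in that step were Pfkfb4 (−1.1 ± 0.13), Pdk4 (−0.93 ± 0.16), Pdk2 (−0.75 ± 0.1), Slc16a1 (−0.46 ± 0.076) and Ldhb (−0.31 ± 0.085). The largest rises were Slc16a3 (1.01 ± 0.084), Pdk1 (0.96 ± 0.063) and Pfkl (0.91 ± 0.053). At 24 h against 6 h, 6 rose and 22 fell, where 35.8% of all tested genes were called (17.6% higher and 18.2% lower). The median log2 fold change of the 34 genes in that step was −0.58, against 0.011 over all tested genes. The steepest falls were Slc16a3 (−2.27 ± 0.088), Pfkfb3 (−1.96 ± 0.13) and Slc2a1 (−1.6 ± 0.076), and the rises were Pdk2 (1.29 ± 0.099), Ldhb, Aldoc, Pfkm, Taldo1 and Pdha1, the last 5 between 0.15 and 0.42. Of these, the call of Taldo1 was lost when any of 13 libraries was left out (adjusted p 0.0517 to 0.143) and that of Pdha1 when any of 3 was (adjusted p 0.0582 to 0.0843). Pdk4 did not pass the test between 24 h and 6 h (0.17 ± 0.17, adjusted p = 0.484). These comparisons share libraries with those against 0 h.

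Of 68 other genes of the same routes, 54 were tested, and 7 rose and 2 fell after 1 h, 12 rose and 7 fell after 2 h, 17 rose and 12 fell after 6 h, and 11 rose and 6 fell after 24 h. Of all tested genes, 10.6% were called after 1 h, 37.7% after 2 h, 40.2% after 6 h and 26.0% after 24 h. The share called among these 54 genes was slightly below that of all genes at 2 h and above it at 1, 6 and 24 h. Their median log2 fold change at 6 h was 0.12. Gys1, glycogen synthase of muscle and most other tissues, rose by 1.48 ± 0.067 at 6 h (adjusted p = 1.83e-15), and Pgm2, a phosphoglucomutase, by 1.04 ± 0.058 (adjusted p = 7.71e-14). Gfpt2, an entry enzyme of the hexosamine pathway, rose by 1.43 ± 0.11 at 2 h (adjusted p = 6.83e-11). Pdp1, the phosphatase that reactivates pyruvate dehydrogenase, fell by 1.21 ± 0.089 at 2 h and 1.1 ± 0.089 at 6 h (adjusted p at most 1.43e-10). Slc2a12, the transporter GLUT12, fell by 2.25 ± 0.31 at 6 h (adjusted p = 1.52e-06). Rbks, ribokinase, fell by 1.03 ± 0.33 at 24 h (adjusted p = 0.0222), a call lost without 0 h replicate 1 (0.0709) or 3 (0.0607), or 24 h replicate 1 (0.0557) or 2 (0.0559).

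Hk3, a hexokinase of blood cells, had 15.2, 33.7, 4.32 and 4.53 CPM at 2 h, against 1.81, 2.08, 3.72 and 3.31 CPM at 0 h, and rose by 2.41 ± 0.59 (adjusted p = 0.00416). Its highest values stood in 2 h replicates 1 and 2, and without them the value was 0.70 (adjusted p = 0.193). All 13 macrophage markers were tested, 12 rose at 2 h with a median log2 fold change of 1.12; their part in the 2 h values was not tested. The 34 genes kept 24 of their 27 calls at 2 h without these 2 libraries (21 higher and 3 lower). Pfkm, Pfkp and G6pdx lost theirs. The libraries kept, 2 h replicates 3 and 4, still held 418 and 507 CPM of macrophage markers, against at most 349 CPM at 0 h. In its counts, 2 h replicate 4 also differed from each other 2 h library more than those differed from each other.

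Among regulators of these routes, Txnip, whose protein lowers glucose uptake by binding GLUT1, fell by 1.48 ± 0.076 after 1 h, 1.35 ± 0.076 after 2 h, 1.22 ± 0.076 after 6 h and 0.76 ± 0.075 after 24 h (adjusted p at most 7.85e-09). Its relative Arrdc4 fell by 0.53 ± 0.14 at 1 h (adjusted p = 0.00801) and was not called at 2, 6 or 24 h; its 2 h value was called without 0 h replicate 2 (adjusted p = 0.0095) or 2 h replicate 2 (adjusted p = 0.0377). Hif1a, the oxygen-regulated activator of many glycolytic genes, rose by 0.59 ± 0.092 at 2 h and 0.67 ± 0.092 at 6 h (adjusted p at most 1.70e-05). Its call of 0.25 ± 0.092 at 24 h (adjusted p = 0.0471) was lost when any of 17 libraries was left out (adjusted p 0.0512 to 0.14). Myc, a growth-related activator of several of the same genes, rose by 0.43 ± 0.07 after 2 h and 0.29 ± 0.07 after 6 h and fell by 0.33 ± 0.072 after 24 h (adjusted p at most 0.00132). Mlxip, a glucose-sensing Mondo factor, was not called at any time against 0 h, with values between −0.26 and 0.062. Without 2 h replicate 4 its 24 h value of −0.26 was called (adjusted p = 0.00451). Its relative Mlxipl had too few counts to be tested. Of these regulators, only the RNA was measured.

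The authors' deposited table of comparisons, which holds 12207 genes, includes all 34. At an adjusted p under 0.05 in the authors' deposited table, 7 of the 34 were called after 1 h, 28 after 2 h, 29 after 6 h and 16 after 24 h against 0 h. Of the calls made here, 7, 27, 29 and 14 at these times were also called in the authors' deposited table, and log2 fold changes differed by at most 0.014.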

How the data were processed

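RNA sequencing of 20 libraries, 4 per time, was analysed. The authors deposited whole-number read counts per gene for 29986 genes. Build mm10 and the tools STAR, FastQC and edgeR are listed, without versions or roles, in the submitters' processing notes. How reads were assigned to genes, and whether by strand, is not given in the sources used here. A second file deposited by the authors holds log2 fold changes, average log2 CPM and adjusted p-values, per the file headers, and was used for 1 comparison only.

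Counts were analysed with edgeR 4.0.16 in R 4.3.3: filterByExpr (14420 genes kept), TMM scaling, a robust quasi-likelihood fit of all 20 libraries with no covariate, and Benjamini-Hochberg adjustment over all tested genes, two-sided, called under 0.05. The procedure was tested on simulated counts with the same spread at all times. That setting could not check it under the wider spread of the 2 h libraries. Levels per kb used GENCODE M21 exonic lengths. Alternatives were RLE scaling, other count filters, DESeq2 1.42.0, a replicate block, only the 8 libraries compared, and leaving out libraries. The members, the other gene lists, the pairs and the rule for named genes (per step, the 2 called members with the largest change, both genes of each pair, and other pathway genes changed at least 2-fold) were chosen with earlier results of these data known. Near copies were genes of at least 90% identity over 300 bases. No column of per-sample values was left unused.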

Additional observations from a re-analysis of the deposited data

Results flagged for a closer look

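In each of 170 groups of 4 libraries (34 genes at 5 times), the most distant library was compared with the spread of its group by Dixon's test, and 9 groups held a library beyond its 95% critical value. Chance gives about 1 in 20 such groups.

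At 2 h, replicate 2 stood above the other 3 libraries for 4 genes: Slc2a1 was at 305 CPM there and at 221 to 230 CPM in the others, Eno2 at 94.6 CPM and at 73.8 to 75.6 CPM in the others, Pkm at 1550 CPM and at 1240 to 1260 CPM in the others, and Slc16a3 at 229 CPM and at 180 to 187 CPM in the others. This library also had the highest macrophage marker level, and the part of that in these values was not tested. Without 2 h replicates 1 and 2 all 4 genes were still called higher at 2 h.

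The other 5 were single values. Slc2a3 was at 8.2 CPM in 6 h replicate 2 and at 6.88 to 6.94 CPM in the other 6 h libraries. Pfkm was at 30.6 CPM in 1 h replicate 3 and at 34.5 to 35.2 CPM in the others. Pfkp was at 45.5 CPM in 1 h replicate 4 and at 49.3 to 50 CPM in the others. Aldoa was at 1300 CPM in 6 h replicate 3 and at 1230 to 1240 CPM in the others. Eno2 was at 42.6 CPM in 24 h replicate 1 and at 47.9 to 48.5 CPM in the others.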

How the results depend on the processing

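The counts of called members stayed within 1.5 times the reported ones, and no single value changed sign among called ones, under RLE scaling, both other filters, DESeq2, the replicate block, the fit of only the 8 libraries compared, and each library left out. Leaving out each library gave 7 to 11 called members after 1 h, 24 to 28 after 2 h, 29 to 29 after 6 h and 12 to 19 after 24 h. Steps gave 22 to 25 (2 h against 1 h), 23 to 26 (6 h against 2 h) and 26 to 29 (24 h against 6 h), and all times together 31 to 33. Against 0 h, 8 member calls were lost and 9 gained in at least 1 such fit. With no count filter the calls against 0 h of Tpi1 and Pgd after 1 h (adjusted p 0.144 and 0.251), Pfkm and G6pdx after 2 h (0.131 and 0.107) and Pfkl, Pfkfb4 and Pdk3 after 24 h (0.0686, 0.0704 and 0.0622) were lost, as were those of Pfkm, Pdha1 and Taldo1 between 24 h and 6 h (0.0886, 0.236 and 0.091). RLE scaling also lost those of Tpi1 (0.065) and Pgd (0.0674) at 1 h, and of Hif1a at 24 h (0.0642). With only the 8 libraries compared, 11 other pathway genes were called at 2 h (19 with all libraries). It was 4 for 2 h against 1 h (9) and 7 for 6 h against 2 h (12). Of all genes, 776 (2357) and 2569 (3944) were called in these steps. Over all comparisons that fit lost 13 member calls, all in comparisons with 2 h, and gained 14, all in comparisons without 2 h. For 2 h against 1 h, Hk2, Pfkp, Aldoa, Pgam1, Eno1, Pdha1, Pgd and Tkt were lost (adjusted p 0.0539 to 0.186). At 24 h against 0 h, Hk2, Pfkfb3, Aldoc, Pgk1, Eno1, Pdhb and Pgd were gained (0.00316 to 0.0244). Such a fit estimates the spread from the 8 libraries alone, and the reason for these changes was not tested. Leaving out a library gave 6 to 14 other pathway genes for 2 h against 1 h, the highest without 2 h replicate 3. RLE moved the median of all genes by at most 0.012 (log2). Replicate numbers did not pair libraries: deviations of same-numbered libraries correlated at −0.17 to 0.13 over 40 pairs, and 2 of 20 libraries correlated best with their own number; with the replicate block 10, 27, 29 and 14 members were called at 1, 2, 6 and 24 h, with G6pdx lost after 2 h (adjusted p = 0.0534), Slc2a3 gained after 2 h (0.0484) and Gapdh after 1 h (0.0386).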

Other observations

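The summed share of counts of the 34 genes varied most among libraries at 2 h (SD 0.0793 percentage points), where its mean lay between those of the neighbouring times; at the other times the SD was 0.00875 to 0.0194. Pfkm and Aldoc, the muscle-type and brain-type isoforms, had their lowest mean after 2 h and their highest after 24 h, unlike Pfkl and Aldoa, which were highest after 6 h and lowest after 24 h. The low 2 h mean of Aldoc rested on 2 h replicates 1 and 2: without them its log2 fold change against 0 h was −0.036. That of Pfkm was then −0.18 and not called. Aldoc was not called against 0 h at any time with edgeR. Per kb, Pfkm was at 12.4 ± 0.409 and Pfkl at 24.5 ± 0.532 CPM at 24 h, and Aldoc was at 15.9 ± 1.07 and Aldoa at 249 ± 11.9 CPM (SD, n = 4).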
